A study of Mus musculus with 6 samples.

Results

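The AP-1 family of transcription factors was described in bone marrow–derived macrophages (BMMs) of mice treated with DASA-58, a small-molecule activator of pyruvate kinase M2 (PKM2). The 10 members were the rows of the table whose Ensembl identifiers map to Fos, Fosb, Fosl1, Fosl2, Jun, Junb, Jund, Jdp2, Batf and Batf3, out of 23504 genes, and all 10 were found. RNA was sequenced from 6 libraries of BMMs from C57BL/6 mice, which the study's methods describe as male and 6 to 8 weeks old. In 3 libraries the cells had received DASA-58 and in 3 libraries the solvent dimethyl sulfoxide (DMSO), each for 3 days. The study's results describe RANKL, the cytokine that drives osteoclast formation, in both groups, whereas its methods name RANKL only for the DASA-58 group. All cells had been grown out with M-CSF (macrophage colony-stimulating factor). The study describes its replicates as independent in general terms, but the labels and methods do not say whether the 3 libraries of a group came from separate mice or cultures, so the p-values measure the spread between these libraries, which may be technical.

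AP-1 is not a single protein but a family of dimers. Proteins of the Jun group pair with each other or with proteins of the Fos group through a leucine zipper, and the basic region next to the zipper binds the DNA sequence TGANTCA, where N is any base. JDP2 and the BATF proteins have the same basic region and zipper but lack the strong activation domains of Fos and Jun, and they can replace Fos as the partner of a Jun protein. In osteoclast precursors, Fos is required for the osteoclast lineage, where it acts upstream of Nfatc1, and JDP2 is known to promote osteoclast formation.

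Promoter sequences from RefSeq (build GRCm38.p6, 250 bases before to 50 bases after each start) were found for 9 members with 11 starts, with no entry for Fosl1. The 120 bases before the start are given for 3 members with different responses, since Fos and Junb were lower under DASA-58 and Jun was not. Capitals mark the matches on either strand to TGANTCA, to TGACGT (the core of the cAMP response element), to TGACATCA (a variant of the AP-1 element), or to the CArG box of serum response factor.
Fos, chr12:85473770-85473889, plus strand: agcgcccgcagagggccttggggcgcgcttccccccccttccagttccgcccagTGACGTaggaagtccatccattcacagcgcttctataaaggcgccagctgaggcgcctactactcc
Jun, chr4:95052223-95052342, minus strand: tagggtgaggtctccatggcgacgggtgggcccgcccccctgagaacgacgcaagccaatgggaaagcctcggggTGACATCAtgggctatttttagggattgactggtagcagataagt
Junb, chr8:84978749-84978868, minus strand: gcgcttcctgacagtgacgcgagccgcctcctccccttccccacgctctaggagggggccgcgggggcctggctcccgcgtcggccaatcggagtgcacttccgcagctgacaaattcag

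The Fos promoter held TGACGT starting 66 bases before the start, and the Jun promoter held TGACATCA starting 45 bases before it. The same TGACGT was found 114 bases before 1 of the 3 starts of Jdp2 and 98 bases before the start of Batf. These letters occur in 7.51% (TGACGT) and 3.62% (TGACATCA) of the 32851 promoters in the RefSeq table. None of the 11 member promoters held TGANTCA or a CArG box within this window, where they occur in 7.81% and 1.63% of all promoters. Sites further than 250 bases before a start were not searched, for Fos as for the others. The 120 bases before the Jund start used here end at 70697738 on chromosome 8, upstream of the annotated gene start at 70698949. The TGACGT match was thus found for Fos and Jdp2, which were lower under DASA-58, and for Batf, whose difference did not pass. Whether these matches bear on the responses was not tested.

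The members spanned more than 3 orders of magnitude in FPKM, in which fragments are scaled to gene length and library depth, so that levels of different genes can be compared. With DMSO, Junb was the most abundant member, at 172 ± 6.76 FPKM (SD, n = 3). Jdp2 followed at 102 ± 6.98 and Fos at 99.6 ± 3.23 FPKM (SD, n = 3 each), and the libraries of these 2 genes overlapped. Jun was at 25.6 ± 1.38 FPKM. The other 6 members were below 10 FPKM in every library, in the order Fosl2, Jund, Batf, Fosl1, Batf3 and Fosb, and none of these neighbours overlapped under DMSO. With DASA-58 the order changed in 2 places. Fos stood above Jdp2 without overlap, and Jund stood above Fosl2 with overlap. The libraries of Fosl1 and Batf3 also overlapped there.

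**Figure D1:**
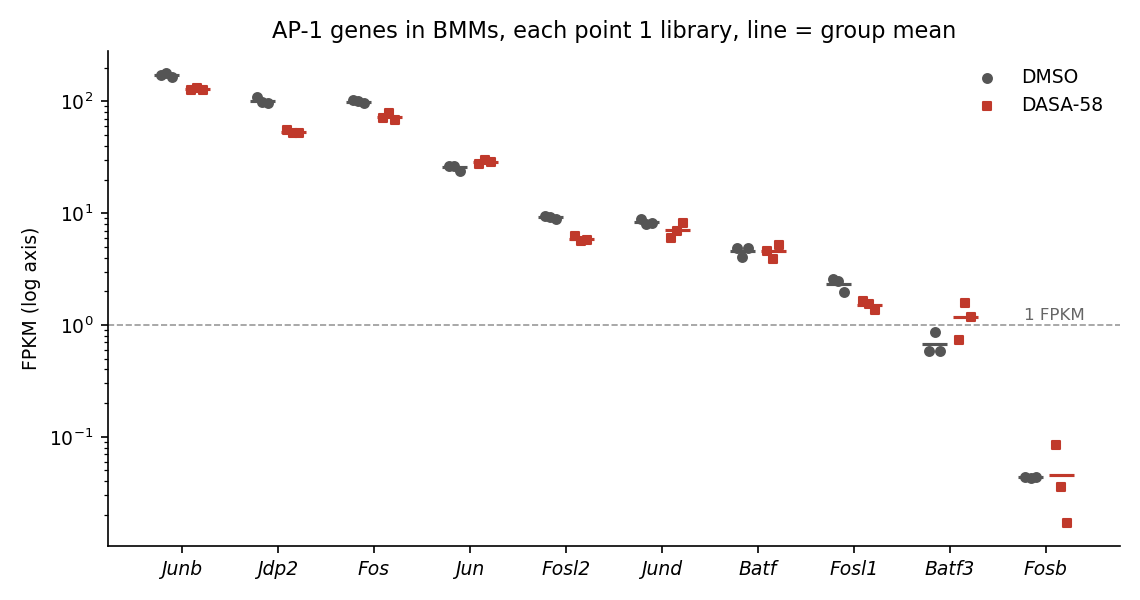
FPKM of the 10 AP-1 genes on a log axis, ordered by the DMSO mean, with 3 DMSO libraries (circles) and 3 DASA-58 libraries (squares) and a line at each group's mean. The groups do not overlap for Jdp2, Fos, Junb, Fosl2 and Fosl1, lower under DASA-58, or for Jun, higher, and Batf3 and Fosb lie around or below 1 FPKM.

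The depth of the libraries, recovered from the steps of the FPKM values, lay between 18191560 and 18968556 fragments. Whole fragments were obtained for all 10 members, and 3 fragments are taken as the limit that a count of 0 allows. The intervals of counting cover counting error only. Of the 8 macrophage markers checked, all were expressed, and the sum of the 8 osteoclast markers lay between 754 and 807 FPKM under DMSO and between 433 and 450 FPKM under DASA-58. All 7 tested osteoclast markers were lower (limma, adjusted p under 0.05), whereas 1 macrophage marker was lower and 3 were higher. Of all genes tested, 7.28% were lower and 4.24% higher. Markers of T and NK cells summed to at most 7.49 FPKM, and of type 1 conventional dendritic cells to at most 12.4 FPKM, in any library. The neutrophil markers summed to 126 to 132 FPKM under DMSO and 102 to 106 FPKM under DASA-58, and 3 of the 6 tested were lower. The part of these shifts in the AP-1 levels was not tested. In bulk RNA, fewer cells of a type and less RNA per cell cannot be told apart.

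To ask which AP-1 genes responded to DASA-58, limma was fitted to log2(FPKM + 1) over the 10965 genes that averaged 1 FPKM or more. On this scale the change of a gene at a low level comes out too small. The filter kept 8 members, each with a mean of at least 1 FPKM in both groups, and left out Batf3 and Fosb. Of the 8, 5 passed as lower under DASA-58 (limma, adjusted p under 0.05 over all genes tested), against 7.28% of all genes tested. None was higher, against 4.24% of all genes, although Jun was higher at an unadjusted p of 0.0098 and passed with voom weights. In these 5 members each DASA-58 value lay below all DMSO values, and Jun was higher, against 21.6% and 11.8% of all genes tested (33.4% in either direction). Jund was lower at an unadjusted p of 0.036 (limma) without passing the adjusted threshold. The median log2 fold change of the 8 members was -0.42, and that of all genes tested was -0.03. The count of 5 was also found with quantile normalization, centring on the median and equal FPKM totals.

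**Figure D2:**
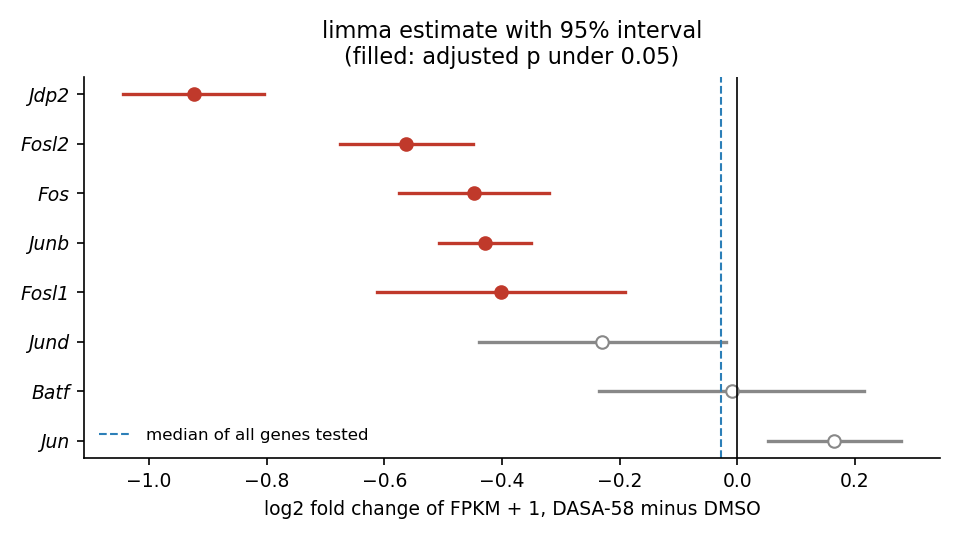
Log2 fold change of FPKM + 1 (DASA-58 minus DMSO) of the 8 tested AP-1 genes with the 95% interval of limma, filled where the adjusted p is under 0.05, with the median of all genes tested as a dashed line. The intervals of Jdp2, Fosl2, Fos, Junb and Fosl1 lie below 0, and that of Batf covers 0. That of Jund lies below 0 and that of Jun above 0, both without passing the adjusted threshold.

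Jdp2, the Jun dimerization protein, changed most among the members. Its level was 110, 99.6 and 96.1 FPKM in DMSO replicates 1, 2 and 3 and 55.5, 52.1 and 51.7 FPKM in DASA-58 replicates 1, 2 and 3. Every DASA-58 library was thus well below the lowest DMSO library. The DASA-58 mean was 52.2% of the DMSO mean. The log2 fold change was -0.92 (SE 0.052, limma adjusted p = 7.0e-05), and 8 of the 10965 genes tested had a lower value on the log2(FPKM + 1) scale. That rank passes over genes at lower levels whose FPKM fell further. For example, Itgb3, an integrin subunit gene, was at 46.5% of its DMSO mean with a log2 fold change of -0.86. Between 3759 and 4318 fragments were behind each DMSO value, and between 2036 and 2244 behind each DASA-58 value. Jdp2 (ENSMUSG00000034271) lies on chromosome 12 of GRCm38 from 85599027 to 85639878. Its first 165 bases overlap Gm47863, a non-coding gene on the other strand, which was at 1.43 FPKM under DMSO and 0.733 FPKM under DASA-58.

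Fos encodes c-Fos, the founding partner of Jun proteins. Fos was at 103, 99.8 and 96.2 FPKM under DMSO and at 70.9, 79.4 and 68.3 FPKM under DASA-58, in the order of the replicates. The groups did not overlap, and the DASA-58 libraries spread more widely (SD 5.81 FPKM, n = 3) than the DMSO libraries (SD 3.23 FPKM, n = 3). The DASA-58 mean was 73.2% of the DMSO mean, with a 95% interval of the log2 fold change from -0.58 to -0.32. The gene (ENSMUSG00000021250) lies on chromosome 12 from 85473890 to 85477273, on the same strand as Jdp2.

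The other Fos genes divided by level. Fosl2, which encodes Fra-2, was at 9.45, 9.17 and 8.90 FPKM under DMSO and at 6.26, 5.64 and 5.77 FPKM under DASA-58. The DASA-58 libraries lay close together, below the lowest DMSO library. Its log2 fold change was -0.56 (SE 0.049, limma adjusted p = 0.00059), and the ratio of the mean FPKM was -0.64 on the log2 scale. The study displayed Fosl2 among genes it had selected as lower in these same libraries, so its direction here is not independent evidence. Fosl1, which encodes Fra-1, was at 2.55, 2.49 and 1.96 FPKM under DMSO and at 1.65, 1.55 and 1.36 FPKM under DASA-58. The groups did not overlap, but the lowest DMSO library stood nearer to the DASA-58 libraries than to the other DMSO libraries in fragments, with 61 fragments against 80 and 80. With DASA-58, Fosl1 rested on 53, 48 and 44 fragments. Its log2 fold change was -0.40 (SE 0.091, limma adjusted p = 0.030), and the ratio of the mean FPKM was -0.62 on the log2 scale (65.0% of the DMSO mean).

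The call of Fosl1 depended on single libraries. Its adjusted p in limma was 0.096 and 0.082 without DMSO replicates 1 and 2, and 0.057, 0.074 and 0.094 without DASA-58 replicates 1, 2 and 3. Fosl1 shares 2767 bases of its locus with Ccdc85b on the other strand, at 38.2 ± 7.98 FPKM under DMSO and 34.6 ± 2.13 FPKM under DASA-58 (SD, n = 3 each), and the use of strand in counting is not given in the sources used here. Without variance shrinkage the adjusted p (limma) was 0.055 for Fos and 0.11 for Fosl1, so that 3 members stayed called. Fosb, the remaining Fos gene, was close to the limit of detection. It had 5, 5 and 5 fragments under DMSO and 10, 4 and 2 under DASA-58, where 3 fragments correspond to 0.026 FPKM. No difference in Fosb was detectable at this depth.

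Of the 3 Jun genes, only Junb passed as lower, and the log2 ratio of Junb to Jund overlapped between the groups. Junb encodes JunB, which can act as a weaker activator than c-Jun. Junb was at 174, 178 and 165 FPKM under DMSO and at 126, 130 and 126 FPKM under DASA-58. The DASA-58 libraries lay close together and far below every DMSO library. The DASA-58 mean was 74.1% of the DMSO mean, and the log2 fold change was -0.43 (SE 0.034, limma adjusted p = 0.00040). Junb (ENSMUSG00000052837) lies on chromosome 8 from 84974484 to 84978718. Its last 351 bases overlap Prdx2 on the other strand, which was also lower, at 62.9 ± 2.60 and 54.7 ± 1.16 FPKM (SD, n = 3 each).

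Jun, which encodes c-Jun, was at 26.4, 26.5 and 24.1 FPKM under DMSO and at 27.7, 30.2 and 28.7 FPKM under DASA-58. Every DASA-58 library was above every DMSO library, by a small margin. The DASA-58 mean was 113% of the DMSO mean. The log2 fold change was 0.17 (95% interval 0.05 to 0.28) and did not pass the threshold (limma adjusted p = 0.068). The adjusted p of Jun was 0.040 with quantile normalization, 0.042 at a mean of at least 5 FPKM and 0.0099 with voom weights on the recovered fragments (limma, with 6.83% of all genes higher), which was chosen after seeing the data. The range of its log2 fold change over all alternatives was 0.12 to 0.20. Thus a fall of Jun like that of Junb was not seen under any of them.

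Jund, the third Jun gene, was at 8.85, 8.05 and 8.20 FPKM under DMSO. With DASA-58 it was at 6.02, 6.95 and 8.12 FPKM. DASA-58 replicate 3 lay within the range of the DMSO libraries, and replicates 1 and 2 lay below it. Jund shares 919 bases with an antisense gene that was not analysed here. The log2 fold change was -0.23 (95% interval -0.44 to -0.02, limma adjusted p = 0.15). Without DASA-58 replicate 3 it was -0.33 with an adjusted p of 0.044 (limma).

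Batf and Batf3 encode AP-1 proteins best known from lymphocytes and dendritic cells. Batf was at 4.85, 4.04 and 4.84 FPKM under DMSO and at 4.61, 3.87 and 5.17 FPKM under DASA-58, so that the groups overlapped fully. Its log2 fold change was -0.01, with a 95% interval from -0.24 to 0.22 that leaves room for a change of about the size seen for Jun. Batf3 had 17, 26 and 17 fragments under DMSO and 22, 46 and 36 under DASA-58, between 0.580 and 1.58 FPKM. The groups overlapped in DMSO replicate 2 and DASA-58 replicate 1. Without the filter its log2 fold change was 0.36 (95% interval -0.04 to 0.75, limma adjusted p = 0.37). The DASA-58 mean was 173% of the DMSO mean, and with voom weights on genes with at least 10 fragments in all the log2 fold change was 0.72 (95% interval 0.07 to 1.37, limma adjusted p = 0.15). Neither fit passed the adjusted threshold. Of the 6 markers of type 1 conventional dendritic cells, which use Batf3, 5 had a mean under 1 FPKM.

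Single values were also compared with an exact permutation test, two-sided, in which 3 libraries against 3 cannot give a p under 0.10. The 6 members without overlap (Jdp2, Fos, Fosl2, Fosl1, Junb and Jun) had this smallest p of 0.10 (exact permutation test). Any gene without overlap has this p, so the test adds nothing to the lack of overlap. Of all genes tested, 33.4% were without overlap.

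The summed level of the 10 members was 439, 429 and 406 FPKM in the DMSO libraries. In the DASA-58 libraries it was 300, 312 and 297 FPKM, which is 71.3% of the DMSO mean. Junb, Jdp2, Fos and Jun made up most of it in each library. Junb took 39.6% to 41.6% of the sum under DMSO and 41.8% to 42.6% under DASA-58, and Fos took 23.3% to 23.7% and 23.0% to 25.5%. Their shares moved by less than their levels. The share of Jdp2 was 23.2% to 25.0% under DMSO and 16.7% to 18.5% under DASA-58. That of Jun was 5.92% to 6.18% and 9.23% to 9.69%. The 3 Jun genes together were at 206 ± 8.11 FPKM under DMSO and 164 ± 3.69 FPKM under DASA-58, and the 4 Fos genes at 111 ± 3.81 and 80.4 ± 5.73 FPKM (SD, n = 3 each).

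**Figure D3:**
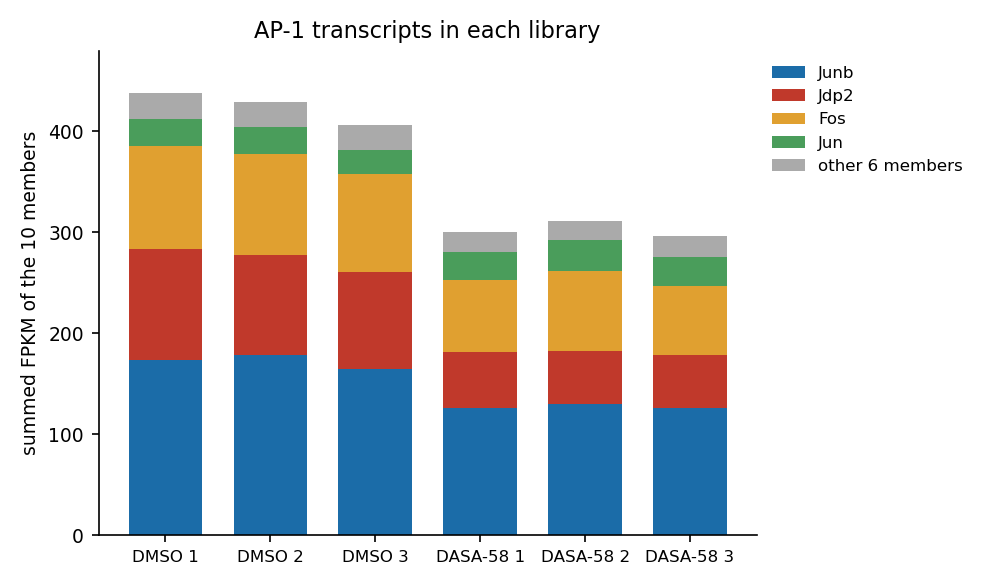
Summed FPKM of the 10 AP-1 genes in each of the 6 libraries, stacked by gene, with the 6 less abundant members together. The bars reach 406 to 439 FPKM under DMSO and 297 to 312 FPKM under DASA-58, and the Jdp2 segment shrinks most while the Jun segment does not.

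Whether members differed in response was examined by the log2 ratio of their FPKM within each library, which does not depend on the scaling between libraries. Among the 28 pairs of the 8 tested members, 18 had ratios that did not overlap between the groups, against 30.7% of all pairs of genes tested. The exact permutation test gave these 18 pairs the smallest possible p of 0.10, two-sided, or 0.16 after Benjamini-Hochberg adjustment over the 28 pairs, so none passed a threshold of 0.05. All 7 pairs with Jdp2 were without overlap. Relative to Fos, Jdp2 fell further, since the ratio of Fos to Jdp2 was 0.937, 1.002 and 1.001 under DMSO and 1.28, 1.52 and 1.32 under DASA-58. Fos was therefore level with Jdp2 in the DMSO libraries and above it in each DASA-58 library.

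The ratio of Junb to Jun was 6.58, 6.74 and 6.86 under DMSO and 4.57, 4.32 and 4.40 under DASA-58. These values were tight within each group and far apart between them. The ratio of Fos to Jun went from 3.89 ± 0.116 to 2.52 ± 0.131 (SD, n = 3 each). The ratio of Junb to Fos was 1.73 ± 0.0503 under DMSO and 1.76 ± 0.107 under DASA-58 (SD, n = 3 each), and the groups overlapped (exact permutation test, two-sided, p = 0.80). Jun and Batf (p = 0.40) and Fosl1 and Fosl2 (p = 0.80) also overlapped in their ratio (exact permutation test, two-sided).

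**Figure D4:**
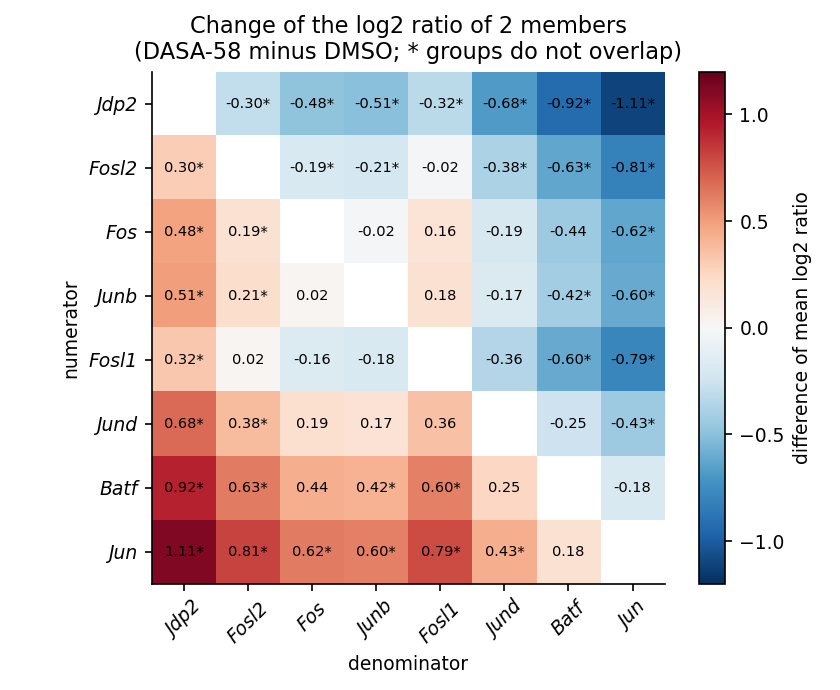
Difference between the groups (DASA-58 minus DMSO) in the mean log2 ratio of the FPKM of the gene in the row to that in the column, for the 8 tested AP-1 genes, with an asterisk where the 3 libraries of each group do not overlap. The Jdp2 row is negative and the Jun row positive throughout, and the ratio of Jun to Jdp2 differs most, by 1.11.

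The genes whose pattern over the 6 libraries was nearest to Fos and to Jdp2 were sought by the root mean square distance of centred log2(FPKM + 1) values. Nearest to Jdp2 were Ctsk, which encodes the bone collagen protease cathepsin K (distance 0.048), Acp5, which encodes tartrate-resistant acid phosphatase (0.054), and Abcg1, a cholesterol transporter (0.060). Ctsk was at 210 ± 6.26 FPKM under DMSO and 110 ± 3.28 FPKM under DASA-58 (SD, n = 3 each). Nearest to Fos were Gtf3c5, a subunit of an RNA polymerase III factor (0.039), Fam102a (0.041) and Itgb7, an integrin subunit (0.042). Gtf3c5 was at 21.7 ± 0.473 and 15.9 ± 0.752 FPKM (SD, n = 3 each). The distances include the difference between the groups, and the study displayed Abcg1 and Fam102a as lower in the same libraries.

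The AP-1 genes were then set beside genes of the same pathway. Among 28 tested regulators of AP-1 synthesis and turnover, 1 was lower, 2 were higher and 25 did not pass (median log2 fold change 0.02), where 7.28% of all genes tested were lower and 4.24% higher. The shares of this list were thus near those of all genes. Among these, the kinase genes Mapk8 and Mapk9, which encode the Jun kinases JNK1 and JNK2, and Srf and Elk1, which encode the factors that bind the Fos promoter after growth signals, had log2 fold changes between -0.14 and 0.08, named here after their values were seen. RNA levels do not measure the activity of these proteins. By Western blot, the study reported that DASA-58 inhibited phosphorylation of kinases including JNK, ERK and p38. Zfp36, whose product binds AU-rich messages and promotes their decay, was lower, at 28.3 ± 0.476 and 24.0 ± 1.37 FPKM. Its relative Zfp36l2 was higher, at 86.4 ± 4.38 and 99.3 ± 1.97 FPKM, as was Rps6ka3, which encodes a kinase of c-Fos, at 14.6 ± 0.152 and 16.4 ± 0.167 FPKM (SD, n = 3 each). These were small changes, and the calls of all 3 genes were lost without single libraries. Their adjusted p (limma) was 0.059 and 0.050 for Zfp36 without DMSO replicate 1 and DASA-58 replicate 1, and 0.065 and 0.056 for Zfp36l2 without DASA-58 replicates 1 and 3. For Rps6ka3 it was 0.052 to 0.078 without DMSO replicates 1 and 2 or any DASA-58 replicate (limma).

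Of 25 tested genes of the basic leucine zipper class outside AP-1, 1 was lower, 5 were higher and 19 did not pass (median 0.07), against 7.28% lower and 4.24% higher among all genes tested. The 5 higher genes became 3 without DMSO replicate 2 or any 1 of the DASA-58 replicates. Cebpa, a myeloid lineage factor, was at 33.2 ± 1.79 FPKM under DMSO and 44.5 ± 0.860 FPKM under DASA-58 (SD, n = 3 each). Its log2 fold change was 0.42 (SE 0.042, limma adjusted p = 0.0012). Atf5, a stress response factor, and Maf, a factor of differentiated macrophages, rose by 0.32 and 0.21 on the log2 scale. The other 2 higher genes were Atf3 and Nfe2l2, named after their values were seen. Atf4, at 107 ± 1.93 and 97.2 ± 0.910 FPKM (SD, n = 3 each), was the lower one. Its adjusted p (limma) was 0.058, 0.058 and 0.055 without DMSO replicate 1, DASA-58 replicate 1 and DASA-58 replicate 3.

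Immediate early genes outside AP-1, which like Fos and Junb answer to growth and stress signals within minutes, gave 8 lower, 2 higher and 10 not passing among 20 tested (median -0.16), against 7.28% lower and 4.24% higher among all genes tested. The 8 lower genes became 4 without variance shrinkage. Myc was at 26.4 ± 1.77 and 16.9 ± 1.31 FPKM, and Egr2, a zinc finger factor, at 2.67 ± 0.149 and 1.39 ± 0.0817 FPKM (SD, n = 3 each). Csrnp1 fell by 0.37 on the log2 scale. Ier3 and Klf6 were higher by 0.22 and 0.16, and their calls were lost under 10 of 18 alternatives each, which include leaving out any of 4 libraries for Ier3 (adjusted p 0.10 to 0.12, limma) and any of 5 for Klf6 (0.056 to 0.14, limma). Myc is among the genes the study displayed from these libraries.

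Osteoclast genes with known AP-1 input were lower in 12 of 14 tested members, against 7.28% of all genes, and none was higher, against 4.24% (limma, with none of the 14 higher at an unadjusted p under 0.05 or with voom weights). Their median was -0.80 on the log2 scale. Ctsk, Acp5 and Atp6v0d2, a subunit of the osteoclast proton pump, had the smallest adjusted p. Their log2 fold changes were -0.93, -0.90 and -0.87 (limma adjusted p at most 4.3e-05). Jdp2 fell by 0.92 on the same scale and Fos by 0.45. Nfatc1, the known target of Fos, had a log2 fold change of -0.45. Calcr was under the filter. The list shares 8 genes with the osteoclast markers, whose sum was also lower under DASA-58. A link between the levels of Jdp2 or Fos and these genes was not tested. The study had picked several of these genes from the same libraries, so the count is not independent evidence.

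Macrophage and inflammatory genes with known AP-1 input went both ways, with 5 lower, 2 higher and 8 not passing among 15 tested (median 0.02), against 7.28% lower and 4.24% higher among all genes tested. The 5 lower genes became 3 without DMSO replicate 1, DMSO replicate 2 or DASA-58 replicate 1. The 2 higher became 4 without DMSO replicate 2, 3 without DASA-58 replicate 1 and 1 without DASA-58 replicate 2 or 3. Il1rn, which encodes the interleukin-1 receptor antagonist, was at 15.1 ± 0.606 and 8.92 ± 0.480 FPKM, and Spp1, which encodes osteopontin, at 287 ± 8.68 and 236 ± 5.68 FPKM (SD, n = 3 each). Cd14, a coreceptor for bacterial lipopolysaccharide, fell by 0.15 on the log2 scale. Mmp12, the macrophage elastase, was higher, at 12.8, 13.2 and 12.9 FPKM under DMSO and 18.1, 18.2 and 17.7 FPKM under DASA-58, and Hmox1, which encodes heme oxygenase 1, rose by 0.14 on the log2 scale. Hmox1 did not pass without DASA-58 replicates 2 and 3 (adjusted p 0.051 and 0.057, limma).

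**Figure D5:**
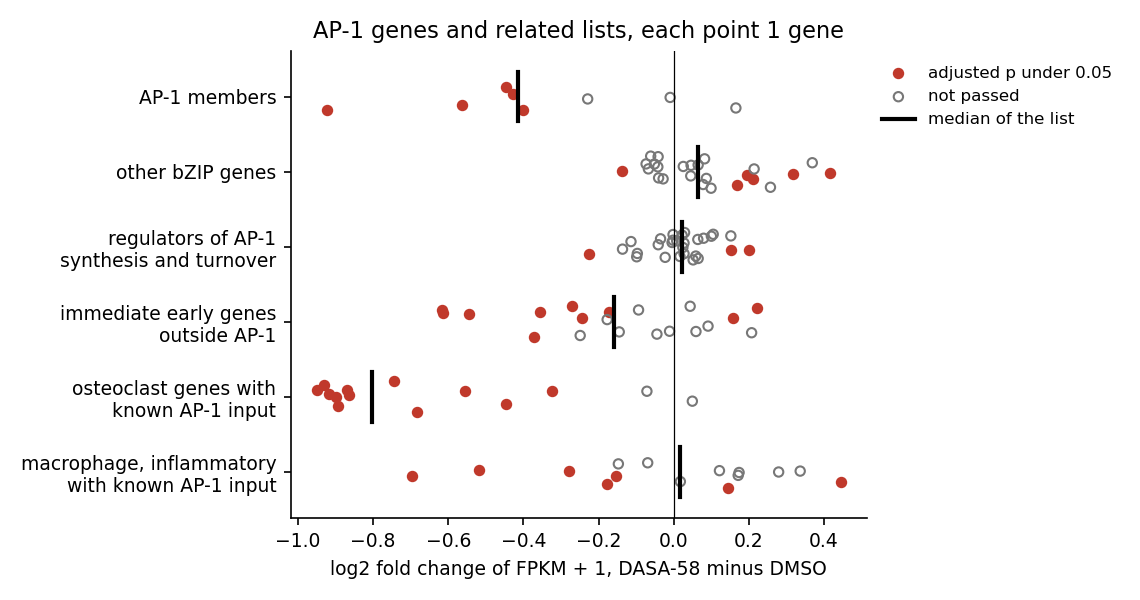
Log2 fold change of FPKM + 1 (DASA-58 minus DMSO) of each tested gene in the AP-1 family and 5 related lists, filled where the adjusted p of limma is under 0.05, with a bar at each list's median. The medians are -0.42 for the AP-1 members and -0.80 for the osteoclast genes, and lie between -0.16 and 0.07 for the other 4 lists.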

How the data were processed

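Total RNA of 6 libraries of BMMs, 3 per group, was sequenced, and the authors deposited FPKM values in 1 table. The submitters' processing notes name HISAT2 2.1.0, HTSeq 0.6.0 and the build mm8. The annotation and the use of strand are not given in the sources used here. Coordinates are those of GENCODE mouse release 21 (GRCm38), whose gene lengths made the FPKM of 90.9% of the genes whole fragments in every library (tolerance 0.02), and of 9 members. A fitted length served for Fosl1. Symbols matched 23455 identifiers, and 0 value columns were unmapped.

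The deposited FPKM were fitted as log2(FPKM + 1) with limma 3.58.1 in R 4.3.3 (trend, Benjamini-Hochberg adjustment over 10965 genes, no block). Exact permutation tests used SciPy 1.17.1. In simulated data (10965 genes, 200 changed), 86.0% of genes changed by 0.5 and 89.0% of those changed by 1 (log2) were called. Of the unchanged genes 4 were called there, and 0 genes were called with nothing changed. The values were simulated for this comparison, independently for each gene and library, so shared library effects were not covered.

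Members and lists were chosen with earlier results of these data known. Named genes are the 10 members, the 3 with the smallest adjusted p of each list in each direction among those under 0.05, the 3 nearest in pattern to Fos and to Jdp2, and those said to be named later. Marker lists of B and plasma cells (1.80 to 2.40 FPKM in sum), stromal cells (34.3 to 36.3), erythroid cells (0.0227 to 0.110) and mast cells and basophils (0.0913 to 0.521) were also summed. Alternatives were other pseudocounts, filters, scalings and variance models, the replicate block and each library left out, and voom weights added after seeing the data.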

Additional observations from a re-analysis of the deposited data

How the results depend on the processing

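Jdp2, Fosl2 and Junb were called lower under all 18 alternatives, Fos under 17 of 18 and Fosl1 under 10 of 17. No call changed its direction. The count of lower members was 3 without variance shrinkage and 4 to 5 when 1 library was left out. The count of higher members was 1 (Jun) in place of 0 at a mean of at least 5 FPKM, with quantile normalization and with both voom fits, and 0 with any library left out. Over all genes, 798 lower and 465 higher became 372 and 257 without the filter, 314 and 227 without variance shrinkage, and 1251 and 707 with voom weights (1257 lower at 10 or more fragments in all). The lower genes were 504 with centring on the median and 515 without a trend. With 1 library left out the lower genes were 387 to 603 and the higher 272 to 375. Of the calls, 63.2% were lower as deposited, 49.5% with quantile normalization and 45.8% with centring. Over all 5 lists, 11 higher genes became 5 without the filter, without a trend or without variance shrinkage, 17 and 18 with the 2 voom fits, and 5 to 10 with 1 library left out, where the lower genes were 22 to 27. With 1 library left out, 18 to 23 pairs of members were without overlap.

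Deviations from the group means correlated between -0.016 and 0.016 for libraries of the same replicate number. For different numbers the correlations lay between -0.046 and 0.061. These values show no trace of pairing by number, but they cannot tell whether such libraries shared a mouse or culture. With the replicate block 579 genes were lower and 378 higher, and 5 members were lower. Fosb, Batf3 and Fosl1 are limited by their few fragments.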

Other observations

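Fos, Jdp2 and Batf lie in this order on chromosome 12 within 235198 bases (GRCm38, 85473890 to 85709087), all on the plus strand. In the DASA-58 libraries Fos was at 73.2%, Jdp2 at 52.2% and Batf at 99.5% of the DMSO mean. Within 200000 bases on either side, Tmed10, which encodes a protein of vesicle transport, was at 71.0 ± 0.353 FPKM under DMSO and 71.9 ± 0.971 FPKM under DASA-58 (SD, n = 3 each). Nek9, a kinase gene, was lower, at 41.0 ± 0.545 and 37.0 ± 0.529 FPKM (log2 fold change -0.14, limma adjusted p = 0.017). Gm47863, the non-coding gene that shares 165 bases with the start of Jdp2 on the other strand, was lower too (log2 fold change -0.48, adjusted p = 0.041, limma). Its reads in the shared bases cannot be told apart from those of Jdp2 where counting did not use strand. Acyp1 and Erg28 had log2 fold changes of 0.15 and 0.16, with adjusted p of 0.21 and 0.068 (limma). These genes were chosen by position after the values of the members were seen.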
